A study of Mus musculus with 6 samples.

Results

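The genes described here are 8 genes of the podocyte slit diaphragm and its regulators, Nphs1, Podxl, Synpo, Wt1, Ptpro, Plce1, Magi2 and Tcf21. They were picked by symbol, with earlier results of these data known. Each symbol was found once among the 55450 genes of the count table, by matching its Ensembl identifiers to GENCODE mouse release M21, so that 8 of 55450 genes are followed. Kidney mRNA had been sequenced from 3 mice of the day-0 group and 3 mice of the day-21 group, all of them male wild-type C57BL/6J mice bought at 7 weeks of age. The day-21 mice had received adenine (0.16 g/kg) mixed with potassium oxonate (2.4 g/kg) by gavage once a day, a treatment that raises serum uric acid and injures the kidney. The day-0 mice are the controls, and their treatment is labelled 20% PEG (polyethylene glycol). Each library was made from total RNA of kidney tissue without a separation of glomeruli from tubules, and each held between 10963849 and 14333311 counts. Libraries were scaled by TMM, which is meant to adjust for differences in RNA composition. Levels are given as CPM, a gene's counts relative to the scaled library size. At these depths the detection floor of 3 counts corresponds to between 0.209 and 0.274 unscaled CPM, a limit that covers counting error only, and all 8 genes lay above it in every mouse. DEGs had to pass an adjusted p of 0.05 and change more than 1.5-fold in the quasi-likelihood test of edgeR, where p-values were adjusted by the Benjamini-Hochberg method over the 16592 genes tested.

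Podocytes are the epithelial cells that cover the outside of the glomerular capillaries. Their interlocking foot processes are joined by the slit diaphragm, a cell junction that forms the last layer of the filtration barrier. Nephrin (Nphs1) spans the slit and is held by scaffold proteins such as MAGI2, the sialomucin podocalyxin (Podxl) coats the apical surface, and synaptopodin (Synpo) binds the actin of the foot processes. The transcription factors WT1 and TCF21 act in the development and upkeep of these cells. Several of the genes are also used elsewhere in the kidney: Podxl is made by vascular endothelium and Tcf21 by interstitial stromal cells. In bulk kidney, fewer cells of a type and less RNA per cell cannot be told apart.

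The stretch before the transcription start is shown for the called genes for which a RefSeq promoter window (GRCm38.p6) gave bases outside annotated exons, because both transcription factors among the 8 genes bind known DNA letters. TCF21 is a basic helix-loop-helix factor of the class that binds the E-box (CANNTG), and WT1 shares the GC-rich site GCGNGGGNG with the EGR factors. Both motifs were searched on both strands, and capitals mark their matches in the sequences, which run 5′ to 3′ on the strand of the gene. The Tcf21 stretch holds 219 bases, chr10:22820175-22820393 on the reverse strand, after 31 annotated exon bases of the window were left out. The Magi2 stretch, at the first of its listed starts, holds 240 bases, chr5:19226796-19227035 on the forward strand.
Tcf21: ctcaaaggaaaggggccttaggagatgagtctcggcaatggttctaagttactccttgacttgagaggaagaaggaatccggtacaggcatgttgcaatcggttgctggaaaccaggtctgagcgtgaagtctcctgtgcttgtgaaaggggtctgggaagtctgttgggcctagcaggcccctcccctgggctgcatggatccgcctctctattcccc
Magi2: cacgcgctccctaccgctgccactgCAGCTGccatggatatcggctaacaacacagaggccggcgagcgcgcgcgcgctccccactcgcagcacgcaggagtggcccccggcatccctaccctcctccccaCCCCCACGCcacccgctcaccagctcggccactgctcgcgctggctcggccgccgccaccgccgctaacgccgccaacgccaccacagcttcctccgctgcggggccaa
The Tcf21 stretch held neither motif. The Magi2 stretch held 1 E-box, at position -225 from the RefSeq start, and 1 match to the WT1/EGR letters, at position -119, on the opposite strand. Among 32851 RefSeq windows of the same 250 bases before the start, 66.2% held an E-box and 10.5% held the WT1/EGR letters, so that the E-box is common in such windows. The second listed Magi2 start had 1 E-box before it and the Ptpro start had 3. A match is a description of the letters and shows no binding. The windows of Nphs1 and Plce1 lay wholly in annotated exons (250 bases each) and were not searched. Podxl and Wt1 had no entry, and no window of Synpo was searched.

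The 8 genes did not move together. On day 21, Tcf21 was higher at 4.19 times the day-0 level, while Nphs1, Podxl and Magi2 were lower at 0.510, 0.613 and 0.613 times that level. Synpo, Wt1, Ptpro and Plce1 were not called in either direction. All 8 genes passed the filter on low counts, with 1 called higher, 3 called lower and 4 not called, beside 35.1% of all genes tested that were DEGs, 19.6% higher and 15.5% lower. Day-0 and day-21 values did not overlap in 4 of the 8 genes, beside 57.1% of all genes tested. The median log2 fold change of the 8 genes was -0.39, against 0.032 for all genes tested. With 3 mice in each group, the smallest p that a two-sided exact permutation test can give is 0.1, and it gave 0.1 for the 4 called genes.

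**Figure D1:**
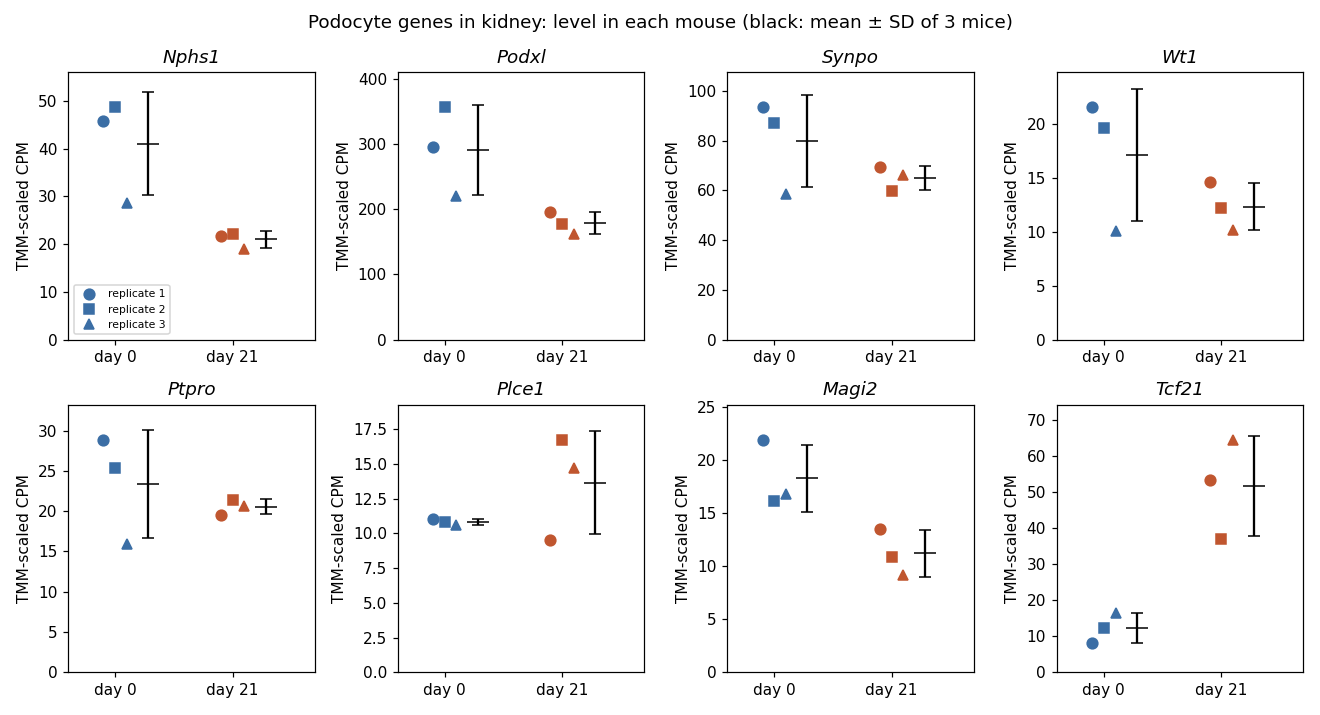
Level of each of the 8 genes in TMM-scaled CPM (vertical axes, each starting at 0) in the 3 day-0 mice (blue) and the 3 day-21 mice (orange), with circle, square and triangle for replicates 1, 2 and 3 and black bars for mean ± SD. Nphs1, Podxl and Magi2 lie lower and Tcf21 lies higher in all day-21 mice, whereas the groups overlap in the other 4 genes, and the triangle of day 0 is the lowest day-0 point in 6 of the 8 panels.

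At the slit itself, Nphs1 (ENSMUSG00000006649.17, chromosome 7, 30458315 to 30487223, forward strand, GRCm38) encodes nephrin, the adhesion molecule that bridges neighbouring foot processes. Its level was 45.8, 48.8 and 28.7 CPM on day 0 and 21.8, 22.2 and 19.1 CPM on day 21. Day-0 replicate 3 lay well under the other day-0 mice, yet still above every day-21 mouse. The mean fell from 41.1 ± 10.9 to 21.0 ± 1.71 CPM (SD, n = 3 each), a log2 fold change of -0.97 (SE 0.19, 95% interval -1.39 to -0.55, edgeR adjusted p = 0.0021). Of the 6620 exon bases of Nphs1, 780 (11.8%) also lie in exons of other genes on the opposite strand, 597 of them in the antisense gene Nphs1os and 183 in the pseudogene Rps12-ps4. Nphs1os held 125, 150 and 79 counts on day 0 and 66, 81 and 75 counts on day 21, a log2 fold change of -1.23 (SE 0.22, adjusted p = 0.0013). Its counts were highest in day-0 replicate 2 and lowest in day-21 replicate 1, and since the strand setting of the counting is not given in the sources used here, reads of Nphs1 and Nphs1os may not have been told apart. Rps12-ps4 held 5 to 17 counts on day 0 and 12 to 29 on day 21 (log2 fold change 0.65, SE 0.56, adjusted p = 0.37).

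Magi2 (ENSMUSG00000040003.18, chromosome 5, 19227036 to 20704792, forward strand) encodes a scaffold with several PDZ domains that binds the nephrin tail. It was measured at 22.0, 16.2 and 16.8 CPM on day 0 and at 13.6, 10.9 and 9.19 CPM on day 21. The groups did not overlap, but the gap between day-0 replicate 2 and day-21 replicate 1 was small. The mean fell from 18.3 ± 3.18 to 11.2 ± 2.21 CPM (SD, n = 3 each), with a log2 fold change of -0.71 (SE 0.19, 95% interval -1.14 to -0.28, edgeR adjusted p = 0.013). This call was lost without day-0 replicate 1 (log2 fold change -0.58, adjusted p = 0.035, fold under 1.5) and without day-21 replicate 3 (-0.58, adjusted p = 0.061). The transcript Gm29254, which shares 203 exon bases (1.79%) with Magi2 on the same strand, held 0 counts in each day-0 mouse and 2, 5 and 1 counts in the day-21 mice.

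Plce1 (ENSMUSG00000024998.17, chromosome 19, 38481109 to 38785030, forward strand) encodes phospholipase C epsilon, whose loss in humans gives early nephrotic syndrome. The day-0 mice lay close together at 11.03, 10.8 and 10.6 CPM, and the day-21 mice lay apart at 9.54, 16.8 and 14.7 CPM. Day-21 replicate 1 was under all day-0 mice and the other two were above them. The log2 fold change of 0.34 (SE 0.21, 95% interval -0.13 to 0.81) was not called (edgeR adjusted p = 0.22, exact permutation p = 0.4).

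On the apical side, Podxl (ENSMUSG00000025608.9, chromosome 6, 31519488 to 31563981, reverse strand) had the highest CPM of the 8 genes. Podocalyxin is a heavily sialylated protein whose negative charge keeps foot processes apart. It was measured at 295.5, 356.9 and 219.8 CPM on day 0 and at 195.7, 177.9 and 161.6 CPM on day 21. The groups did not overlap, and day-0 replicate 3 was again the lowest of its group. The mean of 290.7 ± 68.7 CPM fell to 178.4 ± 17.0 CPM (SD, n = 3 each), with a log2 fold change of -0.71 (SE 0.17, 95% interval -1.08 to -0.33, edgeR adjusted p = 0.0062). Without day-0 replicate 2, the highest mouse, the log2 fold change was -0.53 (adjusted p = 0.021), which is under the 1.5-fold limit.

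Synpo (ENSMUSG00000043079.17) encodes the actin-binding protein of the foot process shaft. It was measured at 93.7, 87.2 and 58.6 CPM on day 0 and at 69.4, 59.7 and 66.2 CPM on day 21. All day-21 mice lay between day-0 replicate 3 and the other day-0 mice. The log2 fold change of -0.30 (SE 0.16, 95% interval -0.66 to 0.07) was not called (edgeR adjusted p = 0.17, exact permutation p = 0.4).

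Ptpro (ENSMUSG00000030223.14, chromosome 6, 137252319 to 137463233, forward strand) encodes the receptor tyrosine phosphatase GLEPP1 of the apical foot process membrane. Its level was 28.9, 25.4 and 15.9 CPM on day 0 and 19.6, 21.4 and 20.6 CPM on day 21. As in Synpo, the day-21 mice lay inside the range of the day-0 mice. The log2 fold change of -0.19 (SE 0.20, 95% interval -0.63 to 0.25) was not called (edgeR adjusted p = 0.47, exact permutation p = 0.6).

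Among the transcription factors, Wt1 (ENSMUSG00000016458.14, chromosome 2, 105126529 to 105173616, forward strand) encodes a zinc finger protein that the podocyte keeps making in the adult. It was measured at 21.6, 19.6 and 10.1 CPM on day 0 and at 14.6, 12.2 and 10.2 CPM on day 21. Day-0 replicate 3 was the lowest of all 6 mice, so that the groups overlapped. The log2 fold change of -0.48 (SE 0.26, 95% interval -1.06 to 0.11) was not called (edgeR adjusted p = 0.16, exact permutation p = 0.4). Without day-0 replicate 3, the value was -0.76 and Wt1 was called lower (adjusted p = 0.0076).

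Tcf21 (ENSMUSG00000045680.8, chromosome 10, 22817281 to 22820174, reverse strand) encodes a factor that in the kidney marks podocytes and also stromal mesenchyme. It was measured at 8.12, 12.3 and 16.6 CPM on day 0 and at 53.4, 36.9 and 64.6 CPM on day 21. The lowest day-21 mouse, replicate 2, lay well above the highest day-0 mouse, replicate 3. The mean rose from 12.3 ± 4.24 to 51.6 ± 13.9 CPM (SD, n = 3 each), with a log2 fold change of 2.07 (SE 0.26, edgeR adjusted p = 0.00013), which is 4.19-fold (95% interval 2.79 to 6.28). In counts, Tcf21 went from 81, 149 and 161 on day 0 to 756, 618 and 1054 on day 21. It was called higher under all 19 alternatives tried, with log2 fold changes from 1.82 to 2.73.

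Markers of fibroblasts and stromal cells moved with Tcf21. All 8 genes of the fibroblast list were called higher (median log2 fold change 1.85), though 5 of them without day-21 replicate 1, 5 without day-21 replicate 3 and 6 with DESeq2. In the 6 mice, their summed level was 239.5, 231.9 and 361.4 CPM on day 0 and 2039, 1119 and 2174 CPM on day 21. Day-0 replicate 3 was the highest of day 0 and day-21 replicate 2 the lowest of day 21 in both Tcf21 and the fibroblast sum, whereas the lowest day-0 mouse was replicate 1 for Tcf21 and replicate 2 for the sum. The stromal receptor Pdgfra, a gene of that list chosen here after its values were seen, was measured at 36.9, 33.0 and 64.1 CPM on day 0 and at 91.7, 46.4 and 120.4 CPM on day 21. None of the 8 fibroblast markers was at 0 in any mouse, and their part in the rise of Tcf21 was not tested.

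**Figure D2:**
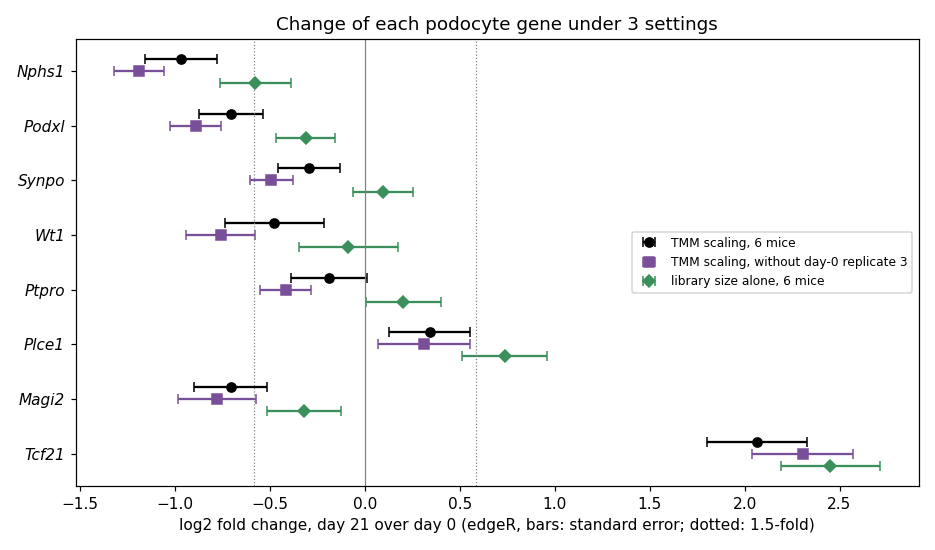
Log2 fold change of day 21 over day 0 (horizontal axis) with its standard error for each of the 8 genes, under TMM scaling with 6 mice (black), TMM scaling without day-0 replicate 3 (purple) and scaling by library size alone (green), with dotted lines at 1.5-fold. Tcf21 lies at 2.07, 2.31 and 2.45 under the 3 settings and Nphs1 at -0.97, -1.19 and -0.58, while Synpo and Ptpro turn from negative under TMM to positive under library size alone.

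The calls of the lower genes depended on how the libraries were scaled. TMM factors were 0.852 to 0.886 on day 0 and 1.12 to 1.17 on day 21, and with library size alone the genes tested as a whole moved from a median of 0.032 to one of 0.42 (log2). The 8 genes then held 2 DEGs, Tcf21 at 2.45 and Plce1 at 0.74 (adjusted p = 0.017), both higher, and none was called lower. Nphs1 (-0.58, adjusted p = 0.023, just under 1.5-fold), Podxl (-0.31) and Magi2 (-0.32) kept a negative sign, whereas Synpo (0.09) and Ptpro (0.20) became positive. The same scaling moved the whole table from 3249 higher and 2572 lower DEGs to 5985 higher and 1338 lower. Relative to the median of all genes, Nphs1 was at -1.0 under TMM and under library size alone, Magi2 at -0.74 and Tcf21 at 2.03 under both, and Podxl at -0.74 and -0.73. These values are nearly fixed by construction, since a change of scaling shifts all genes by about the same amount.

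A ratio of 2 genes within a mouse does not depend on the scaling at all. Synpo, a podocyte gene that was not called, was taken as the denominator after the values were seen. The ratio of Nphs1 to Synpo was 0.489, 0.560 and 0.489 on day 0 and 0.314, 0.372 and 0.288 on day 21. On this measure day-0 replicate 3 stood with its group, and the groups did not overlap. Synpo itself was low in that mouse, at 58.6 CPM against 93.7 and 87.2 CPM in day-0 replicates 1 and 2. Dividing by Synpo therefore offsets the low Nphs1 value of day-0 replicate 3 by construction. For Podxl the ratio was 3.16, 4.09 and 3.75 on day 0 and 2.82, 2.98 and 2.44 on day 21, again without overlap. For Tcf21 it was 0.0867, 0.141 and 0.283 on day 0 and 0.770, 0.617 and 0.976 on day 21. The other genes overlapped: Magi2 at 0.185 to 0.287 on day 0 and 0.139 to 0.196 on day 21, Wt1 at 0.172 to 0.230 and 0.154 to 0.210, Ptpro at 0.271 to 0.308 and 0.282 to 0.359, and Plce1 at 0.118 to 0.181 and 0.138 to 0.281. In all, 3 of the 7 ratios did not overlap between groups, 1 higher and 2 lower, beside 43.3% of all genes tested against Synpo.

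Per kilobase of exon, which allows genes to be compared, Podxl stood first on day 0 at 53.0 ± 12.5 CPM per kb (SD, n = 3), followed by Synpo (8.37 ± 1.96), Nphs1 (6.21 ± 1.64), Ptpro (3.48 ± 1.00), Wt1 (2.76 ± 0.990), Magi2 (1.61 ± 0.280) and Plce1 (0.676 ± 0.0130). These 7 genes kept that order in each of the 3 day-0 mice, although the SDs of neighbours such as Ptpro and Wt1 overlap. Tcf21 (5.25 ± 1.80) had no fixed place, since it lay under Wt1 in replicate 1 and above Synpo in replicate 3. On day 21 Podxl was still first at 32.5 ± 3.10 CPM per kb, but Tcf21 was next at 22.0 ± 5.93, ahead of Synpo at 6.83 ± 0.518 in every mouse. Nphs1 (3.17 ± 0.258) and Ptpro (3.05 ± 0.137) changed places between mice, as did Magi2 (0.989 ± 0.195) and Plce1 (0.854 ± 0.232), with Wt1 (1.99 ± 0.355) between the pairs. As a share of the summed CPM per kb of the 8 genes, Podxl took 64.8% ± 2.67 on day 0 and 45.7% ± 4.96 on day 21, and Tcf21 took 6.88% ± 3.71 and 30.6% ± 6.71 (SD, n = 3 each).

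One control mouse stood low in most of the 8 genes. Day-0 replicate 3 was the lowest day-0 mouse in 6 of the 8 genes, and its median log2 deviation from the day-0 mean over them was -0.39, against 0.23 and 0.16 for replicates 1 and 2. The summed level of the 8 genes was 526.5, 577.1 and 377.1 CPM on day 0 and 397.6, 358.0 and 366.0 CPM on day 21, so that by this sum day-0 replicate 3 lay among the day-21 mice. The sum includes Tcf21, which was higher in every day-21 mouse. In Nphs1, Podxl and Magi2, day-0 replicate 3 lay above every day-21 mouse. The other podocyte lists did not set this mouse apart, since its median log2 deviation was 0.052 for the slit diaphragm partners, -0.123 for the cytoskeleton and apical domain, -0.045 for the transcription factors, -0.060 for the secreted and surface genes and 0.172 for the basement membrane.

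The inner medulla is the deepest zone of the kidney and holds no glomeruli. Of its markers, Akr1b3 and Slc14a2 but not Aqp4 were highest in day-0 replicate 3 among the day-0 mice. The summed level of 3 inner medulla markers, chosen after values were seen, was 182.5, 285.1 and 464.5 CPM on day 0 and 191.7, 146.8 and 186.0 CPM on day 21. Most of that spread came from Akr1b3, the aldose reductase that makes sorbitol in salty tissue, at 47.9, 128.1 and 282.8 CPM, while Slc14a2 (a urea transporter) was at 56.1, 84.1 and 104.9 CPM and Aqp4 (a water channel) at 78.5, 73.0 and 76.8 CPM on day 0. None of the 3 markers was at 0 in any mouse. Their part in the low values of the 8 genes in this mouse was not tested.

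**Figure D3:**
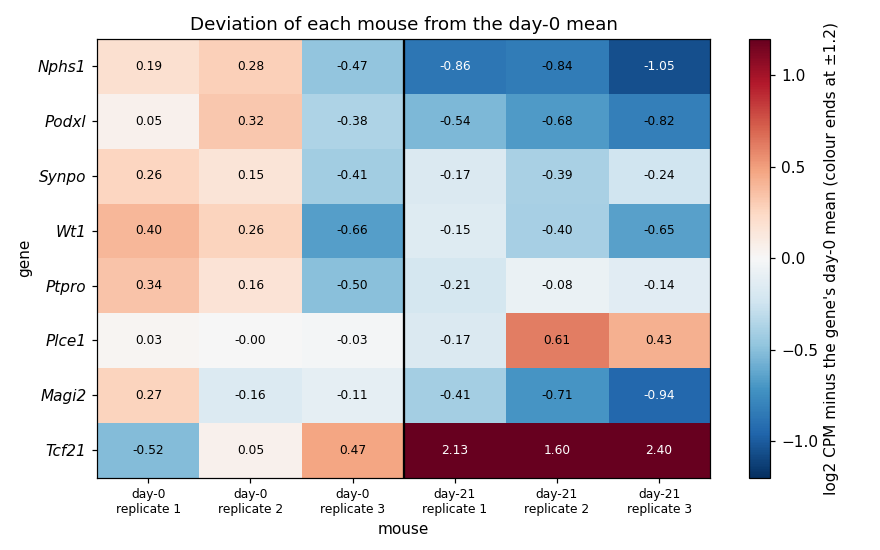
Log2 CPM of each of the 8 genes (rows) in each mouse (columns) minus the mean of the gene over the day-0 mice, printed in each cell, with the colour scale ending at 1.2 in each direction. Day-0 replicate 3 is negative in all genes but Tcf21, and the day-21 columns are negative for Nphs1, Podxl and Magi2 and above 1.5 for Tcf21.

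Leaving out day-0 replicate 3 left all 4 calls in place and made the lower genes lower. Nphs1 was then at a log2 fold change of -1.19 (adjusted p = 8.5e-05), Podxl at -0.89 (adjusted p = 0.00056), Magi2 at -0.78 (adjusted p = 0.013) and Tcf21 at 2.31 (adjusted p = 0.00012), each from edgeR. With Wt1 added, 5 of the 8 genes were called, beside 34.1% of all genes tested without this mouse. Synpo (-0.49, adjusted p = 0.0064) and Ptpro (-0.42, adjusted p = 0.032) passed the adjusted p but not the 1.5-fold limit, and Plce1 was at 0.31 (adjusted p = 0.33). Day-0 replicate 3 was singled out as the lowest day-0 mouse in 6 of the 8 genes. Lower fold changes in those genes follow from that choice, and the added call of Wt1 rests on it.

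The lists of other podocyte genes were likewise split, in bulk kidney where the cells making each transcript were not resolved. Among the partners of the slit diaphragm, 13 of 15 listed genes were tested, with 5 called higher and 1 lower (median log2 fold change 0.44), and 3 called higher without day-0 replicate 2. The nephrin relatives Kirrel (0.93) and Kirrel3 (2.18), the giant cadherin Fat1 (0.78), the adaptor Nck1 (0.72) and the scaffold Cd2ap (0.63) were called higher. Kirrel3 held only 9, 10 and 2 counts on day 0, with replicate 3 under the floor of 3 counts, and its fold is imprecise (SE 0.46). Kirrel was measured at 15.8, 17.4 and 20.5 CPM on day 0 and at 33.6, 36.2 and 32.8 CPM on day 21, so that it moved against Nphs1. Kirrel2, the third of these relatives, was under the filter with 1, 3 and 7 counts on day 0 and 0 counts in each day-21 mouse, too few for a fold.

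Of the other podocyte transcription factors, 6 of 6 were tested, with 1 called higher and 1 lower (median 0.41). Lmx1b, a homeobox factor of podocytes, fell from 4.91, 6.59 and 3.20 CPM to 1.84, 2.86 and 2.76 CPM (log2 fold change -0.98, SE 0.33, edgeR adjusted p = 0.034). Its lowest day-0 mouse was replicate 3, just above the day-21 mice. No gene of the list was called lower when any 1 of the 5 mice other than day-0 replicate 3 was left out, with upper quartile scaling, or with the filter at a mean of 50 counts. The call of the higher gene was lost without day-0 replicate 3 and without day-21 replicate 2, which left 0 higher in each case.

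In the list of podocyte cytoskeleton and apical domain, 14 of 14 genes were tested, with 5 called higher and 2 lower (median 0.15). The largest changes by size were in Anln (3.83), a protein of the dividing cell ring, Pdpn (2.59), podoplanin of podocytes and lymphatic vessels, Inf2 (1.21), an actin-assembling formin, and Clic5 (-0.95), which links podocalyxin and ezrin to actin. Clic5 was measured at 141.4, 129.2 and 137.5 CPM on day 0 and at 82.8, 65.1 and 62.7 CPM on day 21, with day-0 replicate 3 between the other day-0 mice. Among 10 podocyte secreted and surface genes, all tested, none was called higher and 3 were lower (median -0.24): Vegfa (-1.15), the endothelial growth factor, Sema3g (-0.98) and Bmp7 (-0.78). Vegfa is also made by tubules, and it fell from 127.0, 143.9 and 143.3 CPM to 59.2, 67.9 and 58.9 CPM.

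In the glomerular basement membrane and its receptors, 9 of 9 genes were tested, with 2 called higher and 2 lower (median 0.29), and 1 called higher without day-0 replicate 2. The 2 lower genes were Col4a3 (-1.09) and Col4a4 (-0.97), which encode chains of the mature collagen IV of this membrane. Col4a3 was measured at 211.5, 241.5 and 331.6 CPM on day 0, highest in replicate 3, and at 141.7, 109.4 and 117.7 CPM on day 21. Agrn (1.60), a heparan sulphate proteoglycan, and Itgb1 (0.65), an integrin chain used by most cells, were higher. Of 8 genes known from podocyte injury, 4 were called higher and none lower (median 0.61), namely Cd44 (4.41), Plaur (1.49), Snai1 (1.13) and Ctsl (0.66), all of them genes that other kidney and immune cells also express.

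Marker lists of other glomerular cell types moved in different directions. In bulk kidney the cells making these transcripts were not resolved, so that the changes cannot be assigned to the glomerulus. Of 9 glomerular endothelial markers, 3 were called lower and none higher (median -0.49): Kdr (-1.34) and Flt1 (-1.22), both VEGF receptors, and Ehd3 (-1.04). Their summed level was 675.5 to 695.0 CPM on day 0 and 409.9 to 577.0 CPM on day 21, and none of the 9 was at 0 in any mouse. The other 6 markers were not called, and Plat (0.24) and Nostrin (0.27), named after their values were seen, had positive log2 fold changes. The summed level was lowest in day-21 replicate 2, whereas Podxl was lowest in day-21 replicate 3. Since endothelium also makes Podxl, the fall of the 3 called genes stands beside that of Podxl, and its part there was not tested. Of 7 mesangial markers, 4 were higher and 1 lower (median 0.59), led by Serpine2 (2.34), Pdgfrb (1.24) and Tagln (0.73), with Agtr1a (-0.63) lower. The call of Agtr1a was lost without day-0 replicate 2, without day-21 replicate 2 and under upper quartile scaling or library size alone. Of 4 markers of the parietal epithelium that lines the capsule, Cldn1 (2.53) and Akap12 (1.25) were higher and none was lower (median 0.86). Of the 7 leukocyte markers, 6 were tested and all 6 were called higher (median 2.66), with summed levels of 117.1 to 138.6 CPM on day 0 and 487.5 to 670.5 CPM on day 21. For scale, all 8 proximal tubule markers were lower (median -1.99), from a summed 11360 to 12630 CPM on day 0 to 2234 to 2741 CPM on day 21, with log2 fold changes from -3.79 to -1.42 beside the -0.97 of Nphs1.

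With library size alone, no called gene of the 12 lists changed its sign, but the median of the podocyte secreted and surface genes turned from -0.24 to 0.15 and that of the 8 genes moved from -0.39 to 0. The 12 lists held 15 lower DEGs under this scaling, beside 21 with TMM, and all 8 proximal tubule markers were among the 15. They also included Col4a3 (-0.70, adjusted p = 0.0053), Vegfa (-0.76, adjusted p = 0.00034) and Kdr (-0.95, adjusted p = 0.00057) with edgeR, whereas none of the 8 slit diaphragm and regulator genes was called lower. Lmx1b (-0.58, adjusted p = 0.16), Clic5 (-0.57, adjusted p = 0.003) and Col4a4 (-0.58, adjusted p = 0.0018) were no longer called, the latter pair for a fold just under 1.5. Among the slit diaphragm partners, 9 were then called higher and 1 lower.

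**Figure D4:**
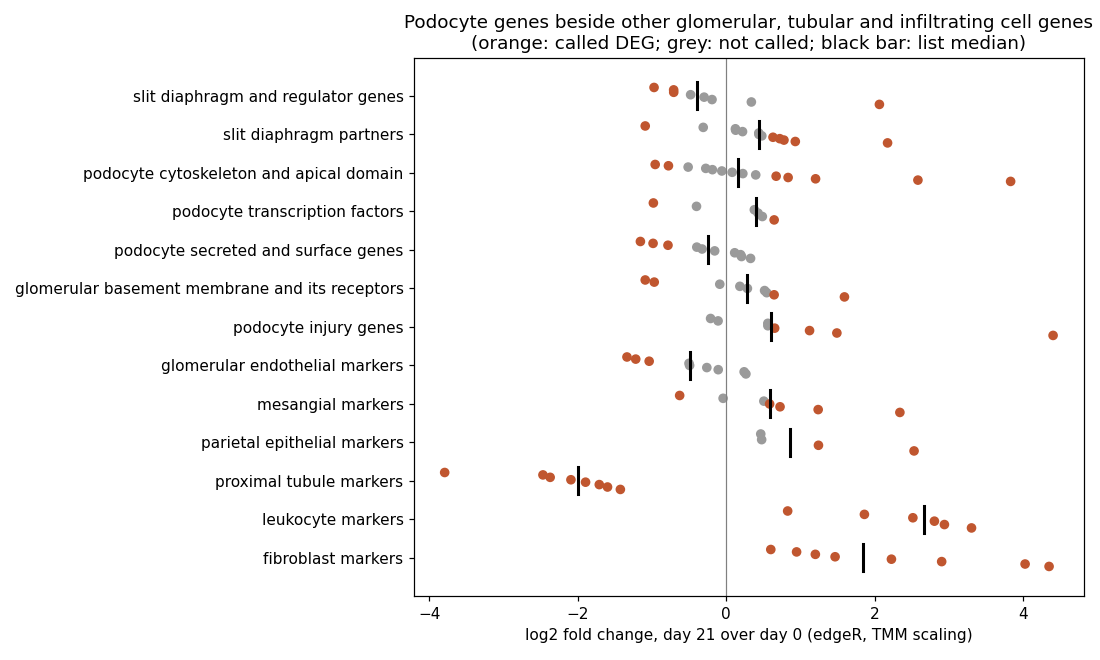
Log2 fold change of day 21 over day 0 (horizontal axis, TMM scaling) of each gene tested in the 8 slit diaphragm and regulator genes (top row) and in 12 lists of other genes (rows below), with called DEGs in orange, genes not called in grey and list medians as black bars. The top row has its median at -0.39 with Tcf21 far to the right, the proximal tubule row lies wholly to the left (median -1.99) and the leukocyte and fibroblast rows wholly to the right (medians 2.66 and 1.85).

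Outside all lists, the profiles closest to the median profile of the 8 genes over the 6 mice were searched among 13025 genes with a mean of at least 50 counts, by Euclidean distance of log2 CPM. They were Pou6f1 (distance 0.119), C130074G19Rik (0.150), Slc25a45 (0.168), Ndufaf3 (0.169) and Dll4 (0.182), a Notch ligand of endothelium. Pou6f1 was measured at 41.6, 36.6 and 28.6 CPM on day 0 and at 29.8, 27.4 and 25.9 CPM on day 21, with day-0 replicate 3 again the lowest of day 0, a pattern for which it was chosen. None of the 5 was a DEG, with log2 fold changes from -0.44 to -0.31. Of the 8 genes themselves, Synpo lay nearest to their median profile (0.195) and Tcf21 farthest from it (3.20).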

How the data were processed

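Total RNA of mouse kidney was made into TruSeq RNA libraries and sequenced as paired-end reads. The submitters' processing notes name TopHat and the mm10 build, and the counting program and its strand setting are not given in the sources used here. The deposited values are raw counts per gene and mouse, which the authors neither normalized nor pooled. All 55450 identifiers matched GENCODE M21 on GRCm38, which supplied symbols, positions and exon lengths.

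Samples were grouped by their labels, and the control was taken as day 0 from the design text. No batch is named. Mice of a group differed by more than sampling noise, with a chi-square of 7.19 to 24.0 per gene for each pair. Genes were filtered with filterByExpr (minimum count 10, minimum total 15), scaled by TMM and tested with edgeR 4.0.16 in R 4.3.3, on the 6 mice without a replicate block, with Benjamini-Hochberg adjustment. The fit was tested on simulated data. Alternatives used limma 3.58.1 and DESeq2 1.42.0, other scalings, filters, thresholds and each mouse left out. Figures were drawn with matplotlib 3.10.9 in Python 3.11.15.

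The 8 genes and all lists were chosen with earlier results of these data known. Named are the 8 genes, in each list up to 4 DEGs with the largest absolute log2 fold change, a few podocyte genes whatever they did (Kirrel, Kirrel2, Cd2ap, Lmx1b, Col4a3, Col4a4 and Vegfa), genes sharing exon bases with one of the 8, and the 5 closest profiles. Some genes that this rule names are not reported here. Inner medulla, collecting duct and thick ascending limb markers were listed after values were seen.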

Additional observations from a re-analysis of the deposited data

How the results depend on the processing

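The 8 genes held 4 DEGs, 1 higher and 3 lower, beside 35.1% of all genes tested that were DEGs. Library size alone gave 2 DEGs, 2 higher and 0 lower, with Synpo at 0.094 and Ptpro at 0.20 reversed, an effect of the TMM factors that this setting omits. Over all genes tested, 44.1% were DEGs with library size alone. Thresholds of 0.01 for the adjusted p and 2 for the fold gave 1 DEG, with 0 lower, beside 19.1% of all genes tested. Library size alone without day-0 replicate 3, an alternative added after seeing the data, gave 2 higher and 1 lower. In that setting 43.7% of all genes tested were DEGs. The 12 lists of other genes held 37 higher and 21 lower DEGs, 58 in all. There were 58 higher ones with library size alone, and 34 DEGs, 20 of them higher, at the stricter thresholds. With 1 mouse left out at a time, DEGs among the 8 genes ran from 3 to 5, higher DEGs stayed at 1 and lower DEGs ran from 2 to 4. The share of DEGs over all genes tested then ran from 30.5% to 34.4%. RLE and upper quartile scaling, DESeq2, limma-voom, no filter or a stricter one, and leaving out the mitochondrially encoded genes or the 20 highest genes each gave 4 DEGs. Over all genes tested, the share of DEGs was 24% with no filter and 34.9% to 35.5% in the others of these settings.

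With a replicate block, 4 of the 8 genes were DEGs, and over all genes 3235 were higher and 2523 lower, beside 3249 and 2572 without it. The replicate numbers are shared only as numbers: deviations of same-numbered mice correlated at -0.019, 0.165 and 0.090 over genes, and day-0 replicate 3 correlated better with day-21 replicate 1 (0.116). The block changed no call among the 8 genes.

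Of the markers listed after values were seen, the thick ascending limb held 1 higher and 2 lower DEGs among 4 genes, the collecting duct 0 and 2 among 5, and the inner medulla 0 and 1 among 3. Depth limits Kirrel2, with at most 7 counts in a mouse, and Kirrel3, with 2 to 10 counts in the day-0 mice.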
